A study of Mus musculus with 20 samples.

Results

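The vascular endothelial growth factor (VEGF) ligands and receptors were followed as 8 genes, taken by symbol from a table of 21315 genes measured in 20 RNA-seq libraries of sorted mouse microglia. The 8 are the ligand genes Vegfa, Vegfb, Vegfc and Pgf, the tyrosine kinase receptor genes Flt1 and Kdr, and the co-receptor genes Nrp1 and Nrp2. All 8 were listed in every library. The test needed an average scaled value of 1 or more, which 6 members reached. Vegfc and Pgf did not and were left untested.

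The mice were 9 months old, on a C57BL/6 background, of both sexes, and the cells were sorted as CD45mid CD11b+ after papain digestion of the perfused brain. APP-KI mice carry the APP NL-G-F knock-in, a humanized Aβ sequence with familial mutations that leads to Aβ plaques. In 6 libraries the cells were also sorted on Td-tomato, a reporter placed in the C3ar1 locus, with 3 libraries from WT;Td-tomato mice (WT C3aR+) and 3 from APP-KI;Td-tomato littermates (APP-KI C3aR+). The 14 other libraries had no sort on C3aR and came from littermates of a separate cross with a whole-body C3aR knockout, as 3 WT, 3 C3aRKO, 3 APP-KI and 5 APP-KI;C3aRKO. The labels number the libraries of a group as replicates without naming the animals, so p-values measure the spread between these libraries. In sorted bulk RNA, a change in the level per cell and a change in the mix of sorted cells cannot be told apart.

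VEGF-A is the main angiogenic ligand of the family and a classical target of hypoxia-inducible factor. It binds KDR (VEGFR2), the chief signaling receptor of endothelium, and FLT1 (VEGFR1), which binds VEGF-A, VEGF-B and placental growth factor tightly, signals weakly and is the VEGF receptor of monocytes and macrophages. The neuropilins NRP1 and NRP2 have short intracellular tails and serve as co-receptors, both for VEGFs with the kinase receptors and for class 3 semaphorins with plexins. VEGF-C, a lymphatic growth factor, acts mainly through FLT4, another kinase receptor.

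On GRCm38, the reference matching the mm10 build of the files, Flt1 lies at chr5:147561604-147726011 and Kdr at chr5:75932827-75978458, both on the minus strand. Nrp1 lies at chr8:128358604-128503363 and Nrp2 at chr1:62703285-62818695, both on the plus strand. Vegfa lies at chr17:46016993-46032369 and Vegfb at chr19:6982473-6987651, both on the minus strand. Nrp1 contains the microRNA gene Mir1903, and Nrp2 overlaps the antisense gene Gm29083 and the unverified transcript Gm37121, whose reads cannot be separated from those of Nrp2 because it is not stated whether strand was used in counting. The 250 bases before the start of transcription of Flt1, Kdr and Vegfa are shown because Flt1 passed the test in the knock-in comparisons and Kdr did not, and because Vegfa is the ligand that both bind. They are RefSeq windows on GRCm38.p6, written 5′ to 3′ on the gene's strand, at chr5:147726012-147726261 for Flt1, chr5:75978456-75978705 for Kdr and chr17:46032378-46032627 for Vegfa, all on the minus strand. For Vegfa the window before the first of the starts listed was used. Capitals mark every match on either strand to ACGTG, the core of a hypoxia response element, to its variant GCGTG, to the cyclic AMP response element TGACGTCA, to GGGCGG, the GC box, and to AGGAAG, a core bound by ETS factors.
Flt1: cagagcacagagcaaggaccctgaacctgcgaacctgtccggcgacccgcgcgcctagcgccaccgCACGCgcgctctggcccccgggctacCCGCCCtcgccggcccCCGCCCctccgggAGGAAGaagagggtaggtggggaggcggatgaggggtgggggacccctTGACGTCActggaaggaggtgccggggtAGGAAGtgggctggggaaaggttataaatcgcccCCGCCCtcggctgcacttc
Kdr: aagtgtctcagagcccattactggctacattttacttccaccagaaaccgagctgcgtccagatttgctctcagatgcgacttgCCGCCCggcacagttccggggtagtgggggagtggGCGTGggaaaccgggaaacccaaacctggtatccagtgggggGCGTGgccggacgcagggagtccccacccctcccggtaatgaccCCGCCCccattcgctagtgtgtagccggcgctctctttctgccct
Vegfa: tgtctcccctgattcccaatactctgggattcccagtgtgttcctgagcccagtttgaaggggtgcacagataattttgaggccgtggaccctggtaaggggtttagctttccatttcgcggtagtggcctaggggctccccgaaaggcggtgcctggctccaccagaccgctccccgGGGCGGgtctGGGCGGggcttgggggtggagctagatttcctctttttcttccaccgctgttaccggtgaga
The Flt1 window held 1 TGACGTCA, which starts 81 bases before the transcription start, 1 GCGTG on the reverse strand 184 bases before it, 3 GGGCGG and 2 AGGAAG. The Kdr window held 2 GCGTG, at 131 and 89 bases, and 2 GGGCGG, and the Vegfa window held 2 GGGCGG, at 72 and 62 bases. None of the marked motifs overlapped another, and ACGTG was in none of these 3 windows. A second Vegfa start has its window at chr17:46025164-46025413, inside the Vegfa gene itself rather than before it. That window held 1 ACGTG on the reverse strand 211 bases before the start, 1 GCGTG at 218 bases and 1 GGGCGG at 158 bases. Over 32817 windows of the same length, ACGTG was found in 16.6%, GCGTG in 28.1%, TGACGTCA in 1.55%, GGGCGG in 32.7% and AGGAAG in 29.5%. These letter matches are a description and say nothing of binding.

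Values are given as scaled values, that is, the deposited values times 35.2, which brings them close to the usual depth-scaled counts. Each C3aR+ library held between 13939559 and 30388941 reads and each other library between 42239056 and 76608464. The libraries fell into 3 series by library number. Series 1 held all C3aR+ libraries, and their mice came from the reporter cross, so sort, series, cross and reporter allele cannot be told apart. Series 2 held 1 WT, 2 C3aRKO, 2 APP-KI and 2 APP-KI;C3aRKO libraries, and series 3 held 2, 1, 1 and 3. Of the 14 others, 5 stood apart by the number of genes without a read: APP-KI replicate 5 had 107 such genes, and APP-KI replicate 4, C3aRKO replicates 1 and 2 and APP-KI;C3aRKO replicate 1 had between 8076 and 8939, against 3876 to 6438 in the remaining 15 libraries. All 5 were in series 2, so leaving them out and taking series 3 alone are nearly the same setting. C3ar1, the targeted gene, lay between 39.9 and 80.4 in the 8 libraries labelled knockout and between 165.0 and 388.0 in WT and APP-KI libraries. The 3 libraries labelled WT C3aR+ held only 37.6, 71.0 and 81.2, below every WT library that was not selected on C3aR (275.6 to 340.0), so C3ar1 reads did not follow that label (log2 difference −2.37 ± 0.33, SE, limma adjusted p = 0.11). Results that rest on the label C3aR+ in WT therefore rest on libraries whose C3ar1 reads do not follow it. These mice carry the reporter in the C3ar1 locus and come from another cross. The low C3ar1 reads therefore cannot be assigned to the sort, the label, the series or the allele. The APP-KI C3aR+ libraries held 201.0 to 382.8. P2ry12, a purinergic receptor gene that marks microglia, was detected in every library, between 424.9 and 2329. Of 12 microglial identity genes 1 rose and 5 fell in C3aR+ microglia, among them P2ry12 by 1.04 and Tmem119 by 1.45 on the log2 scale (limma adjusted p = 0.0010 and 6.4e-05). For APP-KI against WT 2 of the 12 fell and for APP-KI;C3aRKO against C3aRKO 1 did. Of all genes tested, 9.71%, 1.93% and 2.97% fell in the 3 comparisons, and 13% rose in C3aR+ microglia. Some identity genes thus moved in the same comparisons as the VEGF members, and their part in the results was not tested.

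Flt1 was the member that differed most with the App genotype. Its scaled values in C3aR+ microglia were 22.2, 10.7 and 12.6 in WT and 155.4, 182.1 and 313.6 in APP-KI. In microglia not selected on C3aR they were 9.92, 10.8 and 11.95 in WT and 170.5, 166.6 and 243.5 in APP-KI. Without C3ar1 they were 8.37, 6.98 and 14.9 in C3aRKO and 78.4, 142.3, 229.2, 210.1 and 249.8 in APP-KI;C3aRKO. All 11 libraries with the knock-in thus lay above all 9 without it, with the lowest of them, APP-KI;C3aRKO replicate 1, at 78.4 and the highest of the others, WT C3aR+ replicate 1, at 22.2. The same held for Nrp1 and Nrp2 but for no other member, and for 2.68% of all genes with a mean of at least 1.

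Flt1 rose 14.3-fold in C3aR+ microglia. The mean was 15.2 ± 6.17 in the WT group and 217.1 ± 84.7 in the APP-KI group (SD over 3 libraries each), and the log2 difference was 3.75 with a standard error (SE) of 0.30 (limma on log2(scaled value + 1), adjusted p = 6.5e-05). In microglia not selected on C3aR it rose 17.8-fold, from 10.9 ± 1.02 to 193.5 ± 43.3 (n = 3 each), with a log2 fold change of 4.26 ± 0.25 (SE, limma adjusted p = 1.1e-07). In mice lacking C3ar1 it rose 18.1-fold, from 10.1 ± 4.22 (n = 3) to 181.9 ± 70.6 (n = 5), with a log2 fold change of 3.798 ± 0.22 (SE, limma adjusted p = 6.4e-08). Within library series 2 alone the log2 fold change of Flt1 was 3.96 for APP-KI against WT and 3.62 for APP-KI;C3aRKO against C3aRKO. Within series 3 alone it was 4.30 and 3.86. Only the 3.62 had more than 1 library in each group, and it passed the threshold. An exact permutation test of the Flt1 values, two-sided, gave p = 0.1 for 3 against 3 and 0.0179 for 5 against 3, the smallest that these group sizes allow.

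**Figure D1:**
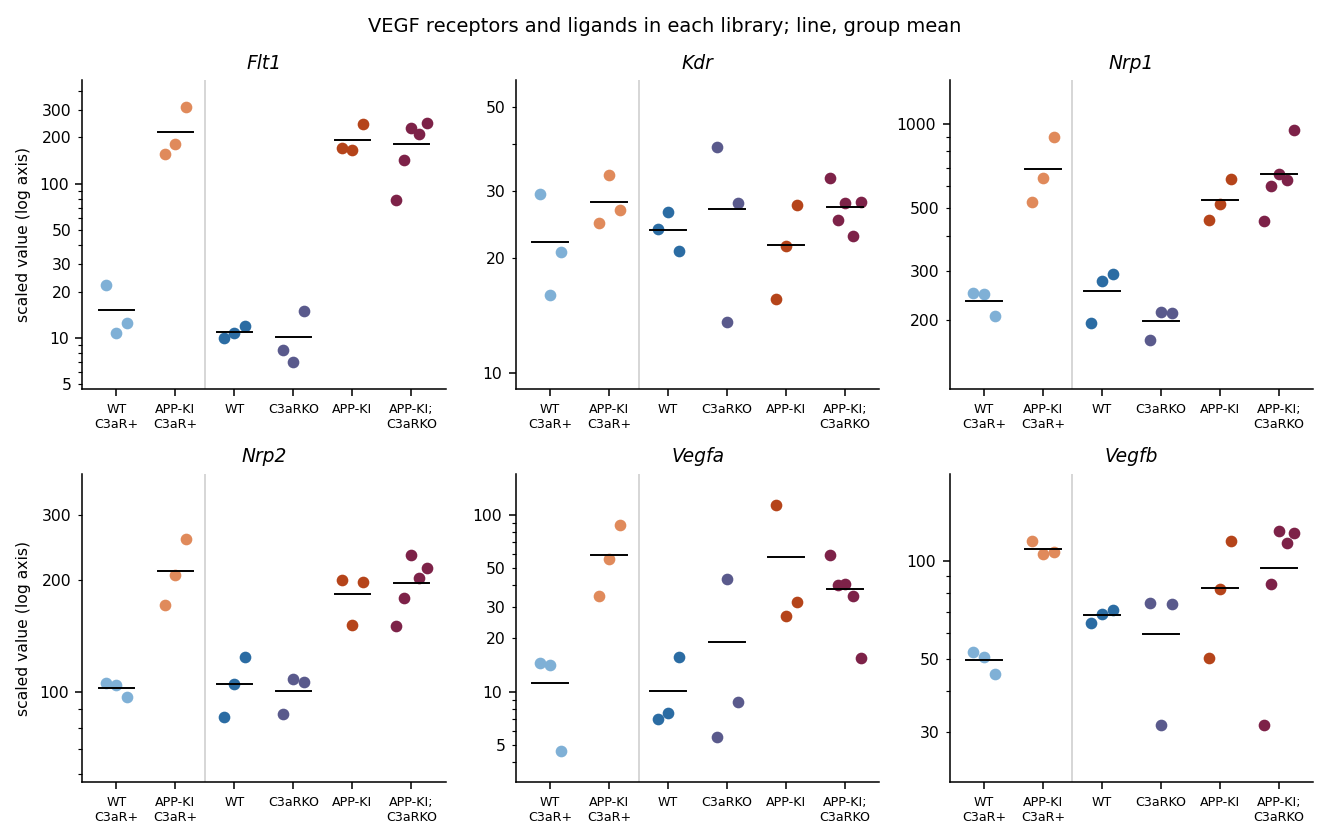
Scaled value (log axis) of the 6 tested genes in each of the 20 libraries, by group; points are libraries and black lines group means, with the C3aR+ groups left of the grey line. Flt1, Nrp1 and Nrp2 lie higher in every knock-in library than in every other library, Kdr overlaps throughout, and Vegfa and Vegfb overlap between some groups.

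Kdr, the receptor that carries most VEGF signaling in endothelium, did not pass the test in any comparison. Its scaled values were 29.5, 15.97 and 20.8 in WT C3aR+ and 24.8, 33.1 and 26.7 in APP-KI C3aR+. They were 23.9, 26.5 and 20.9 in WT, 39.2, 13.6 and 27.9 in C3aRKO, 15.6, 21.6 and 27.6 in APP-KI and 32.5, 25.1, 27.9, 22.8 and 28.1 in APP-KI;C3aRKO. The groups overlapped, and the spread of 13.6 to 39.2 within C3aRKO covered all other Kdr values. The log2 fold change was 0.37 in C3aR+ microglia (95% confidence interval −0.22 to 0.96, limma adjusted p = 0.33), −0.12 for APP-KI against WT (−0.85 to 0.61, adjusted p = 0.98) and 0.10 for APP-KI;C3aRKO against C3aRKO (−0.55 to 0.75, adjusted p = 0.89). The upper ends of these intervals lay below 1, while the lower ends for Flt1 were 3.07, 3.73 and 3.33. The difference between the receptor genes was not tested itself.

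Nrp1 was the most abundant member by scaled value. It measured 248.7, 247.0 and 206.0 in WT C3aR+ and 528.8, 641.2 and 899.3 in APP-KI C3aR+. It measured 195.0, 275.7 and 292.3 in WT and 455.1, 517.4 and 635.9 in APP-KI, and 169.7, 213.6 and 210.8 in C3aRKO against 452.5, 601.1, 664.6, 632.7 and 957.6 in APP-KI;C3aRKO. The groups with and without the knock-in did not overlap in any of the 3 settings. Nrp1 rose 2.95-fold in C3aR+ microglia (log2 fold change 1.53 ± 0.18, SE, limma adjusted p = 0.00048), 2.11-fold in APP-KI against WT (1.22 ± 0.19, adjusted p = 0.0013) and 3.34-fold in APP-KI;C3aRKO against C3aRKO (1.59 ± 0.16, adjusted p = 2.6e-05). Within series 2 alone the log2 fold changes of Nrp1 were 1.31 and 1.45 for the last 2 comparisons, and within series 3 alone they were 1.16 and 1.80. Only the 1.45 had more than 1 library in each group, and it did not pass the test (limma adjusted p = 0.055).

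Nrp2, the second co-receptor, behaved in the same direction with a smaller size. It measured 106.0, 104.6 and 96.9 in WT C3aR+ and 171.4, 206.3 and 258.4 in APP-KI C3aR+. It measured 85.6, 105.1 and 124.6 in WT and 200.7, 151.8 and 197.7 in APP-KI, and 87.1, 108.7 and 106.6 in C3aRKO against 150.5, 179.2, 234.2, 202.4 and 216.3 in APP-KI;C3aRKO. The groups with the knock-in again lay wholly above those without it. Nrp2 rose 2.07-fold (log2 fold change 1.02 ± 0.15, SE, limma adjusted p = 0.0014), 1.75-fold (0.90 ± 0.16, adjusted p = 0.0039) and 1.95-fold (0.87 ± 0.14, adjusted p = 0.0015) in the 3 comparisons. For APP-KI against WT the Nrp2 call was lost when the other groups were left out of the fit (0.90, adjusted p = 0.057). Within series 2 alone the log2 fold changes of Nrp2 for the last 2 comparisons were 1.02 and 0.75, and within series 3 alone they were 0.78 and 1.02. Only the 0.75 had more than 1 library in each group, and it did not pass.

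Among the ligands, Vegfa rose in C3aR+ microglia, where it measured 14.6, 14.2 and 4.59 in WT and 34.8, 56.1 and 87.7 in APP-KI. The groups did not overlap, the means were 11.1 ± 5.66 and 59.5 ± 26.6 (SD, n = 3 each), and the log2 fold change was 2.37 ± 0.44 (SE, limma adjusted p = 0.0048). Microglia not selected on C3aR held 7.0, 7.60 and 15.6 in WT and 113.8, 26.8 and 32.0 in APP-KI. These groups did not overlap either. APP-KI replicate 4, which stands apart with 8076 genes without a read, lay far above the other APP-KI libraries. The log2 fold change of 2.01 ± 0.68 did not pass the test (limma adjusted p = 0.15). DESeq2 on the recovered reads put it at 2.14 with an adjusted p of 0.043, and the other alternatives gave adjusted p from 0.055 to 0.77.

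In mice lacking C3ar1, Vegfa measured 5.56, 43.1 and 8.73 in C3aRKO and 59.0, 40.1, 40.6, 34.5 and 15.4 in APP-KI;C3aRKO. The groups overlapped through C3aRKO replicate 2, one of the libraries that stand apart, and APP-KI;C3aRKO replicate 5. The log2 fold change was 1.48 ± 0.60 (SE, limma adjusted p = 0.18), with 2.19 (adjusted p = 0.039) without C3aRKO replicate 2 and 0.86 (adjusted p = 0.44) without C3aRKO replicate 1. For Vegfa the within-series values of series 2 and series 3 were 2.82 and 1.47 for APP-KI against WT and 1.55 and 1.57 for APP-KI;C3aRKO against C3aRKO. Only the 1.55 had more than 1 library in each group, and it did not pass the threshold. The highest Vegfa values of APP-KI, C3aRKO and APP-KI;C3aRKO came from APP-KI replicate 4, C3aRKO replicate 2 and APP-KI;C3aRKO replicate 1. All of these stand apart by many genes without a read. C3aRKO replicate 1 and APP-KI replicate 5 also stand apart and held the lowest Vegfa values of their groups. How the state of these libraries bears on the Vegfa values was not tested.

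Vegfb, whose product binds FLT1 and NRP1 but not KDR, rose in C3aR+ microglia only modestly but with little spread. It measured 52.8, 51.0 and 45.0 in WT C3aR+ and 115.3, 105.1 and 107.0 in APP-KI C3aR+, a 2.20-fold rise (log2 fold change 1.12 ± 0.13, SE, limma adjusted p = 0.00038). In the other libraries the spread was wide. It measured 64.4, 69.1 and 71.0 in WT, 74.6, 31.4 and 73.8 in C3aRKO, 50.6, 82.3 and 115.6 in APP-KI and 31.5, 84.9, 123.8, 113.4 and 121.8 in APP-KI;C3aRKO. The lowest 3 of these values came from C3aRKO replicate 2, APP-KI;C3aRKO replicate 1 and APP-KI replicate 4, all of which stand apart. The log2 fold change of Vegfb was 0.46 ± 0.37 for APP-KI against WT (SE, limma adjusted p = 0.79) and 0.40 ± 0.33 for APP-KI;C3aRKO against C3aRKO (adjusted p = 0.54). Without the 5 libraries that stand apart, which leaves 1 APP-KI and 1 C3aRKO library, it was 0.65 and 0.64. Series 3 alone, which holds the same APP-KI and C3aRKO libraries, gave 0.72 and 0.69, and series 2 alone gave 0.00 and 0.09. Only the 0.09 had more than 1 library in each group, and it did not pass the threshold.

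Vegfc and Pgf were at the edge of detection. Vegfc was without a read in 9 libraries and under 3 reads in 13, and reached at most 0.90 (43 reads, APP-KI replicate 5). Pgf, which encodes placental growth factor, was without a read in 6 libraries and under 3 reads in 9, and reached at most 1.53 (73 reads) in the same library. That library is the one with only 107 genes at 0. By group, Vegfc had 18, 21 and 20 reads in WT (0.266, 0.278 and 0.288) and 0, 0 and 1 in C3aRKO. It had 16, 0 and 13 in WT C3aR+ and none in the 3 APP-KI C3aR+ libraries, where 3 reads, the limit that a count of 0 allows, stand for scaled values of up to 0.155, 0.130 and 0.236. It had 0, 43 and 2 reads in APP-KI and 0, 24, 0, 1 and 1 in APP-KI;C3aRKO. The WT libraries thus lay above those of C3aRKO for Vegfc, and they did so for Pgf (5, 6 and 6 reads against 0, 0 and 1). Groups did not overlap for 18.5% of all genes tested in that comparison. C3aRKO replicates 1 and 2, which gave the counts of 0, stand apart with 8624 and 8271 genes without a read. APP-KI and APP-KI;C3aRKO overlapped for both genes, and none of this was tested. Limits such as that of 3 reads cover counting error only, and copies of 1 molecule may be among these reads.

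In C3aR+ microglia 5 of the 6 tested members rose and none fell, where 13% of all 12312 genes tested rose and 22.7% passed in either direction. Groups lay apart with APP-KI higher for these 5 members, and for 17.8% of all genes. The median log2 fold change of the 6 was 1.33 against −0.17 over all genes tested. With median ratio scaling the median over all genes was −0.03, and 1844 genes rose and 605 fell in place of 1602 and 1196. The same 5 members were called under it. For APP-KI against WT 3 of 6 members rose (Flt1, Nrp1 and Nrp2), where 2.22% of 12407 genes did and 4.14% passed in either direction. Groups lay apart upward for these 3 and Vegfa, and for 12.8% of all genes. For APP-KI;C3aRKO against C3aRKO the same 3 rose, where 3.96% of genes did and 6.93% passed in either direction. Groups lay apart upward for the same 3, and for 6.34% of all genes. The median over the 6 members was 1.06 and 1.17, against −0.01 and −0.03 over all genes.

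**Figure D2:**
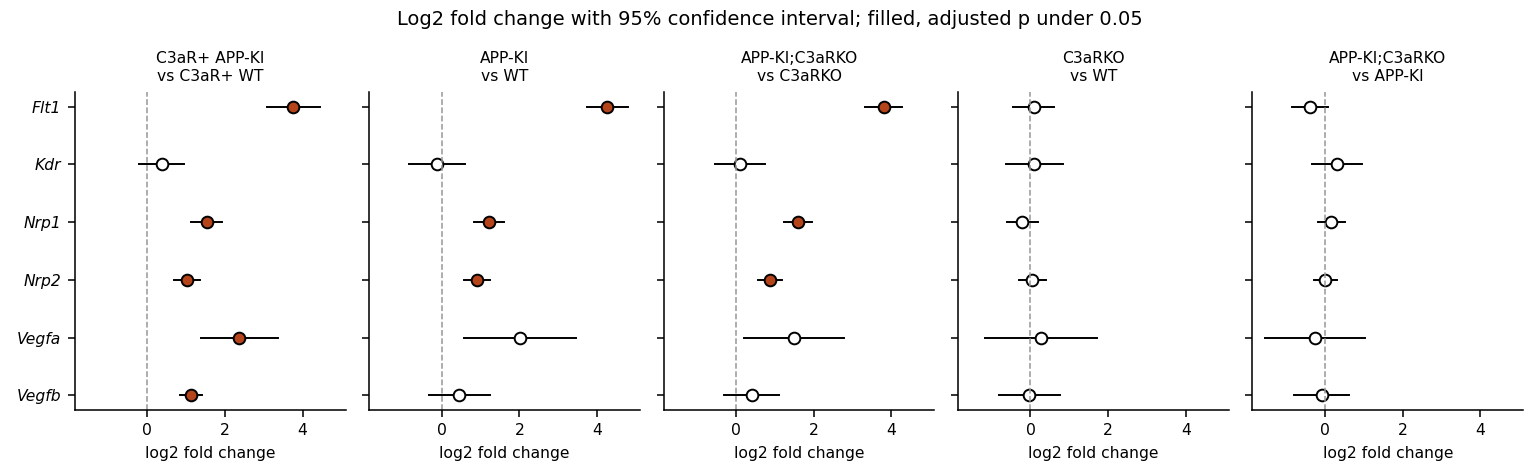
Log2 fold change (x axis) of the 6 tested genes in 5 comparisons, with 95% confidence intervals from limma; filled points passed an adjusted p of 0.05. Knock-in comparisons show Flt1 near 4 and the neuropilins near 1, and no gene passed in the 2 comparisons of C3ar1 loss.

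The C3aR knockout was compared with its C3ar1-intact littermates to ask whether the receptor alters these genes. In mice without the knock-in, 0 of 6 members passed the test for C3aRKO against WT, and 1 gene of all 12407 did (0.00806%, C3ar1 itself). The log2 fold changes ran from −0.21 for Nrp1 (95% confidence interval −0.60 to 0.19) to 0.27 for Vegfa (−1.18 to 1.71). Flt1 differed by 0.08 (−0.44 to 0.61), Kdr by 0.10 (−0.63 to 0.83), Nrp2 by 0.05 (−0.29 to 0.39) and Vegfb by −0.03 (−0.82 to 0.77). The groups overlapped for all 6, while 18.5% of all genes had groups that did not. The intervals of the neuropilins were narrow and that of Vegfa reached past 1 on both sides.

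With the knock-in, 0 of 6 members passed for APP-KI;C3aRKO against APP-KI, and again C3ar1 was the 1 gene called (0.00806%). The Flt1 values of 78.4 to 249.8 in APP-KI;C3aRKO spanned those of APP-KI (166.6 to 243.5), and the log2 fold change was −0.38 (95% confidence interval −0.85 to 0.09, limma adjusted p = 1). Nrp1 differed by 0.16 (−0.19 to 0.52), Nrp2 by 0.01 (−0.29 to 0.32) and Kdr by 0.32 (−0.33 to 0.97). Vegfa differed by −0.26 (−1.55 to 1.03) and Vegfb by −0.08 (−0.79 to 0.63). The groups overlapped for all 6, and 1.61% of all genes had groups that did not. None of these misses shows that the levels were alike. Within series 2 and series 3 the Flt1 difference was −0.67 and −0.0873, and without APP-KI;C3aRKO replicate 1 it was −0.14.

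The C3ar1 difference kept its direction with any single library left out, but its call did not always hold. Leaving out single libraries gave log2 values of −2.55 to −2.19 for C3aRKO against WT and −2.26 to −1.68 for APP-KI;C3aRKO against APP-KI. With all libraries the difference was −2.39 ± 0.27 on the log2 scale for C3aRKO against WT (SE, limma adjusted p = 0.0034) and −1.95 ± 0.24 for APP-KI;C3aRKO against APP-KI (adjusted p = 0.0097). The call was lost without WT replicate 4 in the first (−2.42, adjusted p = 0.055) and without APP-KI replicate 5 (−1.81, adjusted p = 0.11) or replicate 6 (−1.68, adjusted p = 0.45) in the second. Both C3ar1 calls were also lost with only the 2 groups compared (−2.36, adjusted p = 0.18, and −1.93, adjusted p = 0.60). In series 2 alone the values were −2.38, with 1 WT library, and −1.52, which was not called.

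Whether C3ar1 loss acted differently with and without the knock-in was tested directly as a difference of differences. None of the 6 members passed, as none of all genes did with limma (0%). Before adjustment 111 genes were above and 92 below 0 at p under 0.05, and DESeq2 called 1. The member values ran from −0.53 for Vegfa (95% confidence interval −2.51 to 1.45) to 0.37 for Nrp1 (−0.17 to 0.91).

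The sort on the reporter was compared with the unselected microglia of the same App genotype in 12 libraries. Series, cross and reporter allele differ along with the sort, so no difference can be assigned to the sort itself. In WT the members ran from −0.45 for Vegfb (95% confidence interval −0.93 to 0.03) to 0.38 for Flt1 (−0.24 to 0.99) on the log2 scale. In APP-KI they ran from 0.12 for Flt1 (−0.49 to 0.73) to 0.47 for Vegfb (−0.01 to 0.95). None of 6 passed in either, nor did any of 12589 genes (0%) with limma. Before adjustment 126 genes lay above and 426 below at p under 0.05 in WT, and 200 above and 457 below in APP-KI, and DESeq2 called 36 and 28. Groups did not overlap for 1 member in WT (Vegfb, lower after the sort) and 23% of all genes, and for no member in APP-KI and 6.07% of all genes. The knock-in effect in C3aR+ microglia minus that in unselected microglia ran from −0.26 for Flt1 (−1.13 to 0.61) to 0.92 for Vegfb (0.25 to 1.60, unadjusted p = 0.011, limma adjusted p = 0.39), again with 0 of 6 past the threshold. Without APP-KI replicates 4 and 5 the Vegfb value was 0.37. With limma 0 of all genes passed (0%), though 836 lay above and 644 below at p under 0.05 before adjustment, and DESeq2 called 120.

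Levels were compared between members per kilobase of exon, since longer transcripts give more reads. In WT the order by mean scaled value per kb was Vegfb (42.5), Nrp1 (25.99), Nrp2 (8.88), Kdr (2.63), Vegfa (2.35) and Flt1 (0.807). Kdr and Vegfa overlapped in that order and the other neighbors did not. In APP-KI it was Nrp1 (54.8), Vegfb (51.6), Nrp2 (15.5), Flt1 (14.3), Vegfa (13.4) and Kdr (2.39), in which Nrp1 overlapped Vegfb and the ranges of Nrp2, Flt1 and Vegfa overlapped in turn. Flt1 thus moved from the last place to the fourth and Kdr to the last.

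**Figure D3:**
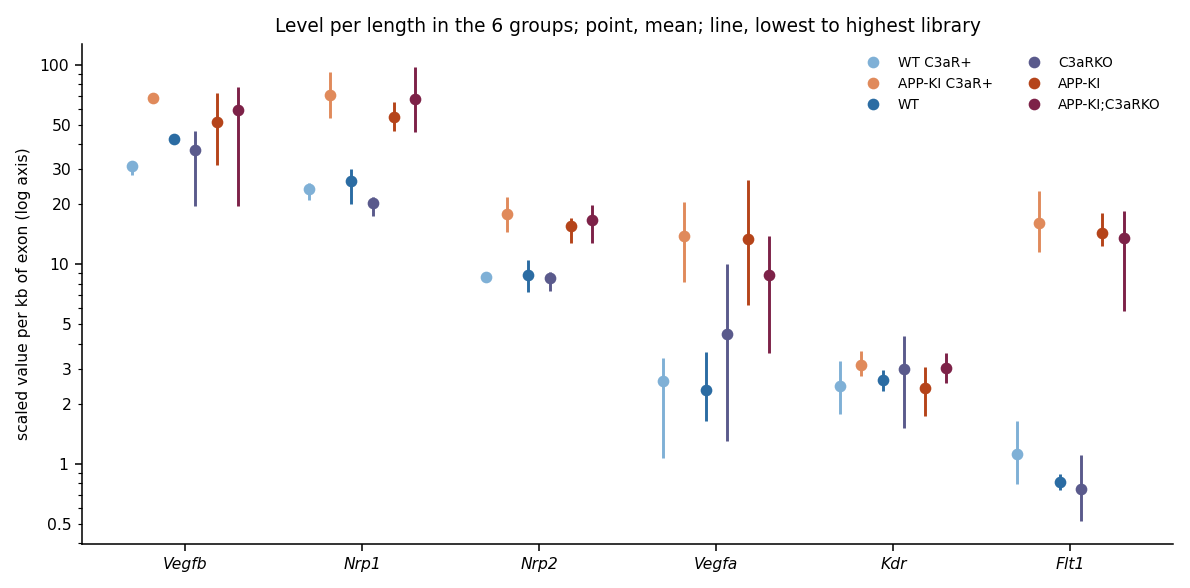
Scaled value per kb of exon (log axis) of the 6 tested genes in the 6 groups; points are group means and vertical lines run from the lowest to the highest library. Flt1 lies below Kdr in the groups without the knock-in and above it in those with it, while Vegfb and Nrp1 have the highest means in every group.

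The ratio of Flt1 to Kdr, both per kb, described this shift within each library and does not depend on library scaling. It lay between 0.404 and 0.503 in WT C3aR+, between 0.273 and 0.382 in WT and between 0.143 and 0.357 in C3aRKO. It lay between 3.68 and 7.85 in APP-KI C3aR+, between 5.17 and 7.29 in APP-KI and between 1.61 and 6.15 in APP-KI;C3aRKO. Flt1 was the lower of the receptor genes in each of the 9 libraries without the knock-in and the higher in each of the 11 with it.

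Since FLT1 and KDR are endothelial receptors too, 16 endothelial markers were read in the same libraries. In C3aR+ microglia 0 of the 14 tested rose and 1 fell, Pecam1, from 31.5 ± 10.4 in WT to 6.64 ± 2.27 in APP-KI (log2 fold change −2.09, limma adjusted p = 0.0030). Of all genes tested there, 13% rose and 9.71% fell. In the other comparisons none passed. The median log2 fold change of the 14 was −0.94 in C3aR+ microglia, with 0 above 0, against −0.17 over all genes. It was 0.32 for APP-KI against WT, with 10 above 0, and −0.02 for APP-KI;C3aRKO against C3aRKO, with 7 above 0. The summed level of all 16 ran from 49.9 to 141.0 in WT C3aR+ and from 24.2 to 26.2 in APP-KI C3aR+. It ran from 57.6 to 70.4 in WT, 66.1 to 80.4 in C3aRKO, 34.8 to 135.2 in APP-KI and 12.5 to 66.1 in APP-KI;C3aRKO. In WT a large part of the sum was Pecam1 (30.0 to 37.1), and 8 of the 16 markers averaged under 1. In APP-KI C3aR+ Pecam1 measured 4.08 to 8.37. The sum thus followed few genes. The highest sum among the knock-in libraries, 135.2, was that of APP-KI replicate 5, in which Flt1 measured 166.6. That library stands apart with only 107 genes without a read. The part of endothelial RNA in the Flt1 and Kdr values was not tested. Cldn5, a defining tight junction gene of brain endothelium, reached at most 10.3, in APP-KI. None of the 16 was at 0 in all libraries of a group.

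**Figure D4:**
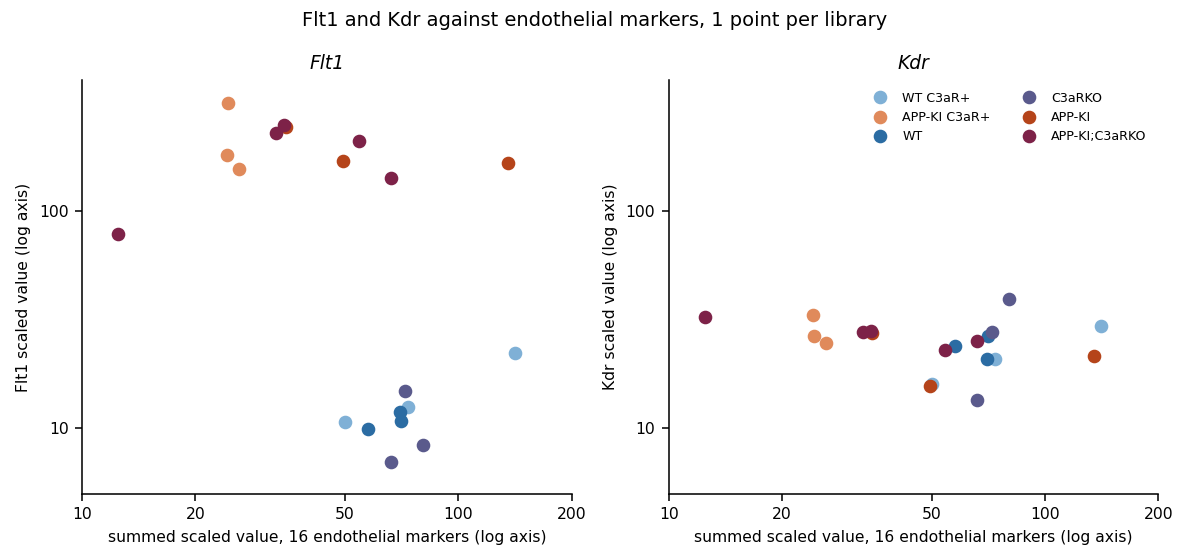
Scaled value (log axes) of Flt1 and of Kdr against the summed scaled value of 16 endothelial markers, with 1 point per library colored by group. The APP-KI C3aR+ libraries combine Flt1 values of 155.4 to 313.6 with endothelial sums of 24.2 to 26.2. APP-KI replicate 5, which stands apart with only 107 genes without a read, has 166.6 at a sum of 135.2. Kdr stays between 13.6 and 39.2 over the whole range of sums.

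Border macrophage markers moved with the App genotype. Of 10 such genes, 6 fell in C3aR+ microglia, 3 for APP-KI against WT and 3 for APP-KI;C3aRKO against C3aRKO, with none rising. Of all genes tested, 9.71%, 1.93% and 2.97% fell and 13%, 2.22% and 3.96% rose in the same comparisons. Stab1, a scavenger receptor gene, fell by 1.53, 1.65 and 1.72 on the log2 scale in these comparisons. The summed level ran from 597.2 to 1001 in the 11 knock-in libraries and from 1567 to 3046 in the 9 others, so it was lower where Flt1 and the neuropilins were higher. Of 7 mural cell genes tested 1 rose in each of the 3 comparisons, Cspg4, a proteoglycan gene that oligodendrocyte precursors also use, by 4.22, 5.21 and 4.10, and no other passed. The summed level of the mural list ran from 141.4 to 304.4 in the knock-in libraries and from 19.2 to 71.3 in the others. Much of it in the knock-in libraries was Cspg4, with means of 188.4, 148.4 and 160.1 in APP-KI C3aR+, APP-KI and APP-KI;C3aRKO. In WT C3aR+, WT and C3aRKO the Cspg4 means were 8.43, 3.20 and 8.67. The median log2 fold change over the 7 tested was −0.09, 0.67 and 0.96 in the 3 comparisons. Of 5 oligodendrocyte genes tested, Mbp, a myelin gene, rose from 57.7 to 120.2 in C3aR+ microglia (log2 fold change 1.07, limma adjusted p = 0.0039) and from 48.5 to 104.1 for APP-KI;C3aRKO against C3aRKO (1.06, adjusted p = 0.0069). Of 9 astrocyte genes tested, Gfap rose from 0.576 to 8.75 in C3aR+ microglia (2.58, adjusted p = 0.0072) and Slc1a3, a glutamate transporter gene, fell by 0.55 (adjusted p = 0.0071). No other gene of these lists passed in the 3 comparisons. The summed oligodendrocyte level ran from 106.7 to 229.5 in the knock-in libraries and from 114.6 to 228.5 in the others, and the astrocyte level from 217.0 to 388.5 and from 272.3 to 426.6. The part of border macrophages, mural cells, oligodendrocytes and astrocytes in the results was not tested.

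The plexins and class 3 semaphorins, partners of the neuropilins, were read as a list of 13 genes of which 8 were tested. In C3aR+ microglia 2 rose and 2 fell, with a median log2 fold change of −0.35 against −0.17 over all genes. For APP-KI against WT 1 rose and 1 fell, and for APP-KI;C3aRKO against C3aRKO again 1 rose and 1 fell. Among all genes 22.7%, 4.14% and 6.93% passed in either direction in the 3 comparisons. Plxna2, a plexin that pairs with neuropilins, rose from 1.51 ± 0.99 to 64.1 ± 29.5 in C3aR+ microglia, from 1.81 ± 1.59 to 62.1 ± 13.5 for APP-KI against WT and from 1.54 ± 2.13 to 51.3 ± 9.99 for APP-KI;C3aRKO against C3aRKO. The log2 fold changes of Plxna2 were 4.66, 4.97 and 4.45 (limma adjusted p = 0.00021, 2.4e-05 and 1.6e-05), larger than those of Flt1. Plxna4, another neuropilin-binding plexin, fell by 1.01, 1.41 and 1.07 (limma adjusted p = 0.00033, 5.9e-05 and 0.00017), from 333.2 ± 26.7 to 165.2 ± 11.04 in C3aR+ microglia.

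Plxnd1, a receptor of semaphorin 3E, rose in C3aR+ microglia by 1.18 (limma adjusted p = 0.0068), and averaged 34.8 ± 16.9 in WT and 31.0 ± 6.06 in APP-KI. Plxna1 fell by 1.06 in C3aR+ microglia (limma adjusted p = 0.040), a call lost without WT C3aR+ replicate 1 (−1.03, adjusted p = 0.11) or 2 (−0.88, adjusted p = 0.15) and without APP-KI C3aR+ replicate 2 (−0.81, adjusted p = 0.11) or 3 (−1.04, adjusted p = 0.075). That call was also lost with no filter, with median ratio scaling, with edgeR and with the replicate block. Plxna1 averaged 41.2 ± 3.12 in WT and 16.3 ± 3.67 in APP-KI, a log2 fold change of −1.12 that did not pass (limma adjusted p = 0.15). For APP-KI;C3aRKO against C3aRKO it was −0.96 and did not pass either (adjusted p = 0.12). Plxna1 overlaps the antisense gene Gm26811. None of the 8 passed in the comparisons of C3ar1 loss.

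Of the nearer relatives of the VEGF family, the platelet-derived growth factors, their receptors, Vegfd and Flt4, 2 of 5 tested rose in C3aR+ microglia, 0 of 6 passed for APP-KI against WT and 1 of 6 rose for APP-KI;C3aRKO against C3aRKO. Of all genes tested, 13% rose in the first of these comparisons, 4.14% passed in the second and 3.96% rose in the third. Pdgfa, a ligand gene, rose from 25.1 ± 2.13 to 45.6 ± 2.22 in C3aR+ microglia (log2 fold change 0.84, limma adjusted p = 0.0075). Pdgfc rose by 1.74 there (adjusted p = 0.028) and by 1.99 for APP-KI;C3aRKO against C3aRKO (adjusted p = 0.040). The first Pdgfc call was lost without WT C3aR+ replicate 2 or 3 or APP-KI C3aR+ replicate 1 or 2 (adjusted p = 0.077, 0.086, 0.070 and 0.093), and the second without any 1 of 11 libraries (all but C3aRKO replicate 1 and APP-KI replicates 4 and 5), with values from 1.22 to 2.07. Flt4, the VEGF-C receptor gene, averaged between 0.346 in WT and 2.61 in APP-KI, and Vegfd reached at most 0.545, so both were low. Of the angiopoietin system, 3 of 6 genes were tested and 0 passed in any comparison.

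Genes that act downstream of the kinase receptors mostly fell where they changed. Of 36 tested, 3 rose and 9 fell in C3aR+ microglia, 0 rose and 7 fell for APP-KI against WT, and 1 rose and 8 fell for APP-KI;C3aRKO against C3aRKO. Over all genes 9.71%, 1.93% and 2.97% fell. The medians over the 36 were −0.20, −0.14 and −0.22, against −0.17, −0.01 and −0.03 over all genes. Prkca, a protein kinase C gene, changed by −1.38, −1.43 and −1.4993 on the log2 scale (limma adjusted p = 0.00015, 0.00067 and 9.8e-05). Plcg1, the phospholipase recruited by the receptors, fell by 0.80, 0.72 and 1.01 in the 3 comparisons (limma adjusted p = 0.0055, 0.0098 and 0.00017). Pxn, which encodes the adhesion adaptor paxillin, fell by 0.84, 0.92 and 1.10 (adjusted p = 0.0019, 0.015 and 0.0014). For APP-KI against WT the Plcg1 call was lost without WT replicate 4 (−0.71, adjusted p = 0.076) or APP-KI replicate 6 (−0.72, adjusted p = 0.064), and the Pxn call without WT replicate 4 (−0.84, adjusted p = 0.14), APP-KI replicate 4 (−0.84, adjusted p = 0.056) or APP-KI replicate 6 (−0.92, adjusted p = 0.088). Mapkapk2 and Mapk3, both kinase genes, rose in C3aR+ microglia by 1.11 and 0.99 (adjusted p = 0.00089 and 0.0071), as did Ptgs2, the inducible cyclooxygenase gene, by 1.66 (adjusted p = 0.025, lost without WT C3aR+ replicate 1 or 2 or APP-KI C3aR+ replicate 2 or 3, with values from 1.28 to 1.67). Ptk2, the focal adhesion kinase gene, was the 1 that rose for APP-KI;C3aRKO against C3aRKO, by 1.42 (adjusted p = 0.039). That Ptk2 call was lost without any 1 of 10 libraries (all but C3aRKO replicate 3, APP-KI replicate 4 and APP-KI;C3aRKO replicates 1 and 2), with values from 1.03 to 1.48. None of the 36 passed in the comparisons of C3ar1 loss.

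On the side of Vegfa, 1 of 12 listed regulators rose in all 3 knock-in comparisons, Hif1a, the oxygen-regulated subunit of HIF-1, and 1 fell in C3aR+ microglia, its partner Arnt (−0.39, limma adjusted p = 0.038). The Arnt call was lost without any of the 3 WT C3aR+ libraries or APP-KI C3aR+ replicate 1 or 2 (−0.42 to −0.34), and under median ratio scaling (−0.24, adjusted p = 0.23). It was also lost with edgeR, DESeq2 and the replicate block. Hif1a measured 206.1, 196.2 and 169.9 in WT C3aR+ and 639.3, 862.2 and 1061 in APP-KI C3aR+, with no overlap, a log2 fold change of 2.13 ± 0.18 (SE, limma adjusted p = 6.8e-05). It rose by 2.11 ± 0.27 for APP-KI against WT and by 1.90 ± 0.24 for APP-KI;C3aRKO against C3aRKO (adjusted p = 0.00028 and 0.00016), and differed by 0.21 for APP-KI;C3aRKO against APP-KI (95% confidence interval −0.30 to 0.72). Of 19 HIF target genes tested besides Vegfa, 12 rose and 1 fell in C3aR+ microglia, 5 rose and 0 fell for APP-KI against WT, and 7 rose and 1 fell for APP-KI;C3aRKO against C3aRKO. The medians over the 19 were 1.17, 0.69 and 1.00, against −0.17, −0.01 and −0.03 over all genes. Of all genes tested, 13%, 2.22% and 3.96% rose and 9.71%, 1.93% and 2.97% fell in these comparisons. The gene that fell was Ddit4, a stress-induced inhibitor of mTOR signaling, with −1.84 in C3aR+ microglia and −2.21 for APP-KI;C3aRKO against C3aRKO (limma adjusted p = 0.0094 and 0.043). The second Ddit4 value, whose groups overlapped, was named after it was seen, and its call was lost without any 1 of 7 libraries, WT replicates 4, 5 and 6, C3aRKO replicates 1 and 3, APP-KI replicate 6 or APP-KI;C3aRKO replicate 5, with values from −2.25 to −1.79. Egln3, an oxygen-sensing prolyl hydroxylase gene, rose by 4.56, 3.70 and 3.94 (limma adjusted p = 4.2e-05, 0.0017 and 0.00023), of which edgeR did not call that for APP-KI against WT (adjusted p = 0.057). The same Egln3 call was lost with a pseudocount of 0.1 and with the replicate block. Over the same comparisons Vegfa itself changed by 2.37, 2.01 and 1.48, with the first past the threshold. Hif1a overlaps the antisense gene Gm15283 and the gene Gm49321.

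The genes whose pattern was most like each member were found by Pearson's r of log2(scaled value + 1) across the 20 libraries, among 12374 genes. These r values are descriptive, since the libraries fall into those with and without the knock-in and share that difference. For Flt1 they were Cst7 (r = 0.991), a cystatin gene, Fam20c (0.991) and St14 (0.988). For Nrp1 they were Sulf2 (0.993) and Ephx1 (0.976), and for Nrp2 Gpi1 (0.976), Galns (0.976) and Coro1c (0.969). For Vegfb they were Prelid1 (0.976), Ppt1 (0.975) and Akr1a1 (0.970). Vegfa and Kdr had looser companions: Ccrl2 (0.951), Dna2 (0.922) and Stx3 (0.915) for Vegfa, and Ndrg3 (0.830), Ibtk (0.826) and Lin7c (0.809) for Kdr.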

How the data were processed

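RNA-seq of FACS-sorted microglia was analyzed from 20 libraries in 6 groups. Per the labels and methods, the authors used a NovaSeq, trimmed reads with cutadapt, aligned them with TopHat to mm10, and counted them with featureCounts, with DESeq2 as their test. The kit carries molecular identifiers, but whether duplicates were collapsed is not stated. The deposited values are a signal, although named FPKM: read counts over the upper quartile (75%) of counts in that library, with no correction for length. Division by the smallest step gave whole reads in 100% of values (tolerance 0.02). The scaled value is 35.2 times the deposited one, and 1 read then stands for 0.0132 to 0.0786. Library totals ran from 13939559 to 76608464 reads, which limits the precision of low genes.

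For each fit, genes averaging 1 or more in scaled value entered limma 3.58.1 on the log2(scaled value + 1) scale (R 4.3.3, mean-variance trend, Benjamini-Hochberg adjusted p under 0.05 over all genes). Fold changes on this scale understate those of low genes. The 6 C3aR+ libraries were fitted alone, the 14 others together with library series as a term, and the 12 WT and APP-KI libraries together for the sort. edgeR 4.0.16 and DESeq2 1.42.0 on the recovered reads, another pseudocount, filters, median ratio scaling, a stricter threshold, a replicate block and leaving out libraries were alternatives. The fits were checked on simulated data. That check drew every library from the same mean profile and spread, with no series effect and no libraries that stand apart. It therefore cannot give the error rate of the fits on these libraries. The members, lists and tests were chosen with earlier results of these data known. Named besides the members are, per list and comparison, genes past the threshold with groups that do not overlap, at most 5 rising and 5 falling by size, of which the text gives some, plus Hif1a, Flt4, Vegfd, Plxna1, Plxnd1 and C3ar1, and the 3 genes most like each member, of which 1 is not reported here. Exon lengths were merged from GENCODE M21 and promoters taken from RefSeq, whose table matched all 8 members. Reads of genes that overlap others cannot be separated, since the use of strand in counting is not given in the sources used here. Protein sequences were not used here. No 2 libraries held identical values, and replicates of a group differed by more than counting noise.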

Additional observations from a re-analysis of the deposited data

Results flagged for a closer look

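In the group of 5 APP-KI;C3aRKO libraries, the only group large enough for a gap test, Vegfc in replicate 2 lay apart from the others at a scaled value of 0.338 (24 reads), with the next library at 0.0172 (1 read). The gap was 0.949 of the whole range, above Dixon's 95% critical value of 0.71. The highest and the lowest library were looked at for all 8 members, and chance marks about 1 in 20 such groups. The libraries at both ends for the 6 tested members stayed below that value, the nearest being Nrp1 in replicate 5 (0.580) and Vegfb in replicate 1 (0.578). No difference between effects in 2 settings passed the test for any member.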

How the results depend on the processing

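The limits are the group sizes, the libraries that stand apart and the confounding of sort with library series, cross and reporter allele. The 11 calls of members stayed past the threshold under edgeR, DESeq2, median ratio scaling, both filters, the other pseudocount and every left-out single library, and none of the calls changed direction under any of the alternatives run. At an adjusted p under 0.0005, 3 members were called in C3aR+ microglia (Vegfa and Nrp2 lost), 1 for APP-KI against WT (Flt1) and 2 for APP-KI;C3aRKO against C3aRKO (Nrp2 lost). With only the 2 groups compared, Nrp2 was lost for APP-KI against WT (adjusted p = 0.057). Among the listed genes, Plcg1 was lost there too, as were Pdgfc, Ptk2 and Ddit4 for APP-KI;C3aRKO against C3aRKO. Without a filter, Ptgs2 and Pdgfc were lost in C3aR+ microglia, and Pdgfc, Ptk2 and Ddit4 for APP-KI;C3aRKO against C3aRKO. With the replicate number as a block, 1 member was called for APP-KI against WT (Nrp1 1.17, adjusted p = 0.10; Nrp2 0.94, adjusted p = 0.29) and 2 for APP-KI;C3aRKO against C3aRKO (Nrp2 0.88, adjusted p = 0.11), with all calls kept in C3aR+ microglia. Same-numbered libraries correlated at -0.01 to 0.04 in C3aR+, 0.09 to 0.25 in WT with APP-KI and 0.00 to 0.22 in C3aRKO with APP-KI;C3aRKO. Pairs with unlike numbers ran from -0.05 to 0.02, -0.22 to 0.20 and -0.24 to 0.24. These values do not settle whether equal numbers mark pairs. The block took the all-gene counts to 2240, 78 and 166. It could not be fitted for C3ar1 loss or for the sort. Series 2 alone, with 2 libraries in each group, called 1 member, Flt1, for APP-KI;C3aRKO against C3aRKO, and it held only 1 WT library for APP-KI against WT. These added alternatives by library were chosen after seeing the data.

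Over all genes the counts were 2798, 514 and 860 in the 3 knock-in comparisons. At an adjusted p under 0.0005 they were 267, 75 and 139. For the last comparison they were 79 in series 2 alone and 443 with only the 2 groups compared. The fits without the 5 libraries that stand apart and in series 3 alone left 1 library in a group, so their counts are not given. Leaving out single libraries gave 1777 to 2528, 218 to 837 and 614 to 1397.

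Uncalled members near 0 changed sign. Without the 5 libraries, the log2 difference was 0.21 for Kdr (APP-KI against WT), -0.11 for Vegfa, 0.0101 for Vegfb and -0.0772 for Nrp2 (C3aRKO against WT), 0.0042 for Vegfb and -0.083 for Kdr (APP-KI;C3aRKO against APP-KI), -0.0983 for Kdr (APP-KI;C3aRKO against C3aRKO) and 0.0429 for Vegfa (difference of differences). In series 3 alone, which holds the same 1 APP-KI and 1 C3aRKO library as that fit, these were 0.22, -0.30, 0.0755, -0.10, 0.0478, -0.0743, -0.0897 and 0.11. In series 2 alone C3aRKO against WT gave -0.34 for Flt1 and -0.0393 for Kdr, and APP-KI;C3aRKO against APP-KI gave -0.0873 for Nrp2. Without the series term C3aRKO against WT gave -0.16 for Flt1 and -0.0502 for Nrp2, and APP-KI;C3aRKO against APP-KI 0.13 for Vegfb. Without APP-KI replicates 4 and 5, C3aR+ against unselected APP-KI microglia gave -0.23 for Flt1 and -0.0839 for Vegfb. Leaving out single libraries, C3aRKO against WT ranged from -0.43 to 0.87 for Vegfa, -0.34 to 0.30 for Vegfb, -0.0354 to 0.37 for Flt1, -0.23 to 0.47 for Kdr and -0.0515 to 0.14 for Nrp2. APP-KI;C3aRKO against APP-KI ranged from -0.71 to 0.28 for Vegfa, -0.26 to 0.27 for Vegfb and -0.0634 to 0.13 for Nrp2. Kdr ranged from -0.35 to 0.0519 for APP-KI against WT and from -0.28 to 0.43 for APP-KI;C3aRKO against C3aRKO, Vegfa from -1.07 to 0.11 for the difference of differences, and Flt1 from -0.18 to 0.33 for the sort in APP-KI and from -0.56 to 0.0341 for the difference between sorts. The cause of these shifts was not tested.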
